A study of Mus musculus with 6 samples.

Results

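Saa1, Saa2, Saa3, Duox2, Duoxa2, Nos2, Lcn2, Reg3b, Reg3g and Dmbt1 are genes that the intestinal epithelium switches on when it meets microbes. These 10 genes were taken by name from a table of 28500 genes measured in colon epithelial cells, and all 10 were found there. The libraries came from 3 Ube2fΔIEC mice, which the labels call KO, and 3 Ube2fflox mice, which they call WT. All 6 were labelled as males of 8 weeks given no DSS and no other drug. Ube2f encodes a conjugating enzyme that hands the ubiquitin-like protein NEDD8 to cullins, and ΔIEC stands for its deletion in intestinal epithelial cells. The labels do not name the Cre driver, the WT mice carry the floxed allele, and other differences between the lines cannot be told apart from the deletion. Each replicate is labelled as a separate mouse, so p-values measure the spread between mice. EDTA loosened the cells from cut pieces of colon, so a library can hold other cells of the mucosa too. Fewer cells of a type and less RNA per cell cannot be told apart in such bulk samples.

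As background, enterocytes sense bacteria through Toll-like receptors and through cytokines such as IL-22 and IL-17 from lymphocytes, which act on the epithelium by way of STAT3, NF-kB and C/EBP factors. The genes they switch on act in the lumen and at the cell surface. Serum amyloid A proteins carry retinol and lipids, the oxidase DUOX2 makes hydrogen peroxide and NOS2 makes nitric oxide. Lipocalin-2 withholds iron by binding siderophores, the REG3 lectins bind the cell wall of bacteria, and DMBT1 is a large scavenger receptor protein of mucus that aggregates them.

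KO replicate 1 goes against its label as male. Xist, which is transcribed from an inactive X chromosome, stood there at 494 CPM (counts scaled to library size) and did not exceed 1.33 CPM elsewhere, while Uty, Kdm5d, Eif2s3y and Ddx3y of the Y chromosome had 0 counts. WT replicate 1 stood closer to KO replicates 2 and 3 (correlation of log CPM across genes of 0.976 and 0.975) than to WT replicates 2 and 3 (0.972 and 0.966). WT replicate 2 likewise stood closer to KO replicates 3 and 2 (0.977 and 0.975) than to WT replicates 3 and 1 (0.974 and 0.972). Correlations of WT replicate 3 and those of KO replicate 1 each ran from 0.959 to 0.974, the lowest being that between these libraries. Values without KO replicate 1 and without 1 or more of the WT libraries, left out singly, are given beside the results of the 9 members that were tested. Ube2f itself had 17.2, 18 and 21 CPM in KO replicates 1 to 3 and 34.0, 42.1 and 32.1 CPM in WT replicates 1 to 3, so the groups did not overlap (log2 fold change -0.95, SE 0.13, Benjamini-Hochberg adjusted p = 0.0923 by the quasi-likelihood test of edgeR and adjusted p = 9.32e-08 by DESeq2). Libraries held 55971362 to 76483134 counts in KO and 63247380 to 77524693 in WT. The 8 epithelial marker genes summed to 13978 to 16333 CPM in KO and 14875 to 16390 CPM in WT.

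The Saa genes lie together on chromosome 7 (GRCm38 with GENCODE M21 genes, Saa1 at chr7:46740497-46742980, Saa2 at chr7:46751790-46754313 and Saa3 at chr7:46711998-46715700), and the promoters of Saa1 and Saa2 are shown because they are nearly the same while the levels of the genes are far apart. The sequences are from RefSeq on GRCm38.p6, 250 bases before to 50 after the start, 5′ to 3′ along the gene, and capitals mark the bases that differ when the pair is aligned. Saa1 is at chr7:46742931-46743230 on the minus strand and Saa2 at chr7:46751583-46751882 on the plus strand.
Saa1: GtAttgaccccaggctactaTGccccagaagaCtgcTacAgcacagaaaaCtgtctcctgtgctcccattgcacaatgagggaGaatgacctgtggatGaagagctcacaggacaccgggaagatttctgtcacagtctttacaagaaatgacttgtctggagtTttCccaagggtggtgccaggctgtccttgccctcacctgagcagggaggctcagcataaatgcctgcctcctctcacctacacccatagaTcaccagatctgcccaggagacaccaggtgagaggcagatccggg
Saa2: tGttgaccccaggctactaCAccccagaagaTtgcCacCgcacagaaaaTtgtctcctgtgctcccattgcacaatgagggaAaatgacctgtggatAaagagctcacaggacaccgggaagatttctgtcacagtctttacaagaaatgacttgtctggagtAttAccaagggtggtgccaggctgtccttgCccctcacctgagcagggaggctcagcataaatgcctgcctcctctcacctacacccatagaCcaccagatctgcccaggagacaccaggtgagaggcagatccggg
In the alignment 287 of 301 columns were identical (95.3%), with 12 substitutions and 2 gap columns. Only 1 capital in each falls in the last 100 bases. The promoters of Saa1 and Saa3 were identical in 54.2% of aligned columns.

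Duox2 (chr2:122279247-122298449) and Duoxa2 (chr2:122298900-122302885) are neighbours that are read away from each other, and their promoters are shown for that reason. Their GENCODE starts are 451 bases apart. The RefSeq start used for Duox2 lies inside its GENCODE gene, so the 451 bases are not the distance between the starts shown. Capitals mark the 50 bases from the RefSeq start on. Duox2 is at chr2:122298178-122298477 on the minus strand and Duoxa2 at chr2:122298650-122298949 on the plus strand.
Duox2: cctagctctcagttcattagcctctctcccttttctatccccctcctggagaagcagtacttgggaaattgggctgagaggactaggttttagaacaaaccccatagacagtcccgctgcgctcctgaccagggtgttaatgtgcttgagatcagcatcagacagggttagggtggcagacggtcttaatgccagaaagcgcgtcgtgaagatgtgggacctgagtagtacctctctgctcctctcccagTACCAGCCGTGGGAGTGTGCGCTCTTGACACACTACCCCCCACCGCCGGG
Duoxa2: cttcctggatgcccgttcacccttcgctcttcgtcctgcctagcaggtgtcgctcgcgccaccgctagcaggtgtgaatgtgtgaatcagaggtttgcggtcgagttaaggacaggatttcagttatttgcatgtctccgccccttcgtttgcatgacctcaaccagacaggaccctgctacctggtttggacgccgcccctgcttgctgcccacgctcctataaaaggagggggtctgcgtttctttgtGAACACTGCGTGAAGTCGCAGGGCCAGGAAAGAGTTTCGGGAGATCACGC
The lectin genes Reg3b (chr6:78370657-78373466) and Reg3g (chr6:78466269-78468872) had promoters identical in 69.0% of aligned columns. A stretch around the letters TTCNNNGAA, the spacing of a STAT site, is shown for Reg3b (chr6:78370736-78370784, plus strand), with the aligned stretch of Reg3g (chr6:78468973-78469022, minus strand). By GENCODE the Reg3b stretch lies inside the gene, since the RefSeq start is further along it. Capitals mark those letters in Reg3b and the bases aligned with them in Reg3g.
Reg3b: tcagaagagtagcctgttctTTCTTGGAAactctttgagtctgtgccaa
Reg3g: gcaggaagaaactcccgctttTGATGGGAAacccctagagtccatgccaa

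Promoter sequences were found for 8 of the 10 genes, all but Nos2 and Dmbt1, and were searched on both strands for 3 motifs. TTCNNNGAA was in 1 of the 8, that of Reg3b, and in 8.3% of the 32851 promoters of the table. TTGCNNAA, which a C/EBP site can have, was in 4 of the 8 (Lcn2, Saa1, Saa2 and Saa3) and in 10.8% of all promoters. The promoters of Saa1 and Saa2 are near copies that hold the same match, so they are not independent cases. A form of the kappa B motif was in 0 of the 8 and in 1.63% of all promoters. No match overlapped another, and a match is a run of letters, not a site shown to be bound. RefSeq and GENCODE starts differ for some of these genes. By GENCODE the Reg3b match and the Lcn2 promoter lie inside the gene.

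The members spanned a wide range of levels in the unchallenged colon. On the authors' FPKM scale, which allows for gene length, Dmbt1 came first with 877 ± 76.0 in KO and 846 ± 165 in WT (SD, n = 3 each) and was the 35th most abundant of all genes by the mean of 6 libraries. Saa1 followed at 38.7 ± 8.30 FPKM in KO and 87.0 ± 35.1 FPKM in WT. Reg3b was at 93.0 ± 61.3 FPKM in KO and 28.6 ± 10.9 FPKM in WT, so Saa1 and Reg3b stood in opposite order in the genotypes, with overlapping spreads in KO. Duox2 came next at 9.91 ± 0.712 FPKM in KO and 10.4 ± 1.52 FPKM in WT. Reg3g, at 12.3 ± 8.82 FPKM in KO and 5.42 ± 1.95 FPKM in WT, did not lie apart from Duox2 beyond its spread in KO. Duoxa2 had 4.40 ± 0.367 FPKM in KO and 7.25 ± 2.11 FPKM in WT. Saa3 had 2.13 ± 0.0845 FPKM in KO and 3.47 ± 0.974 FPKM in WT. Nos2 was under 1 FPKM on average in both genotypes, and Saa2 and Lcn2 were near 0.

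**Figure D1:**
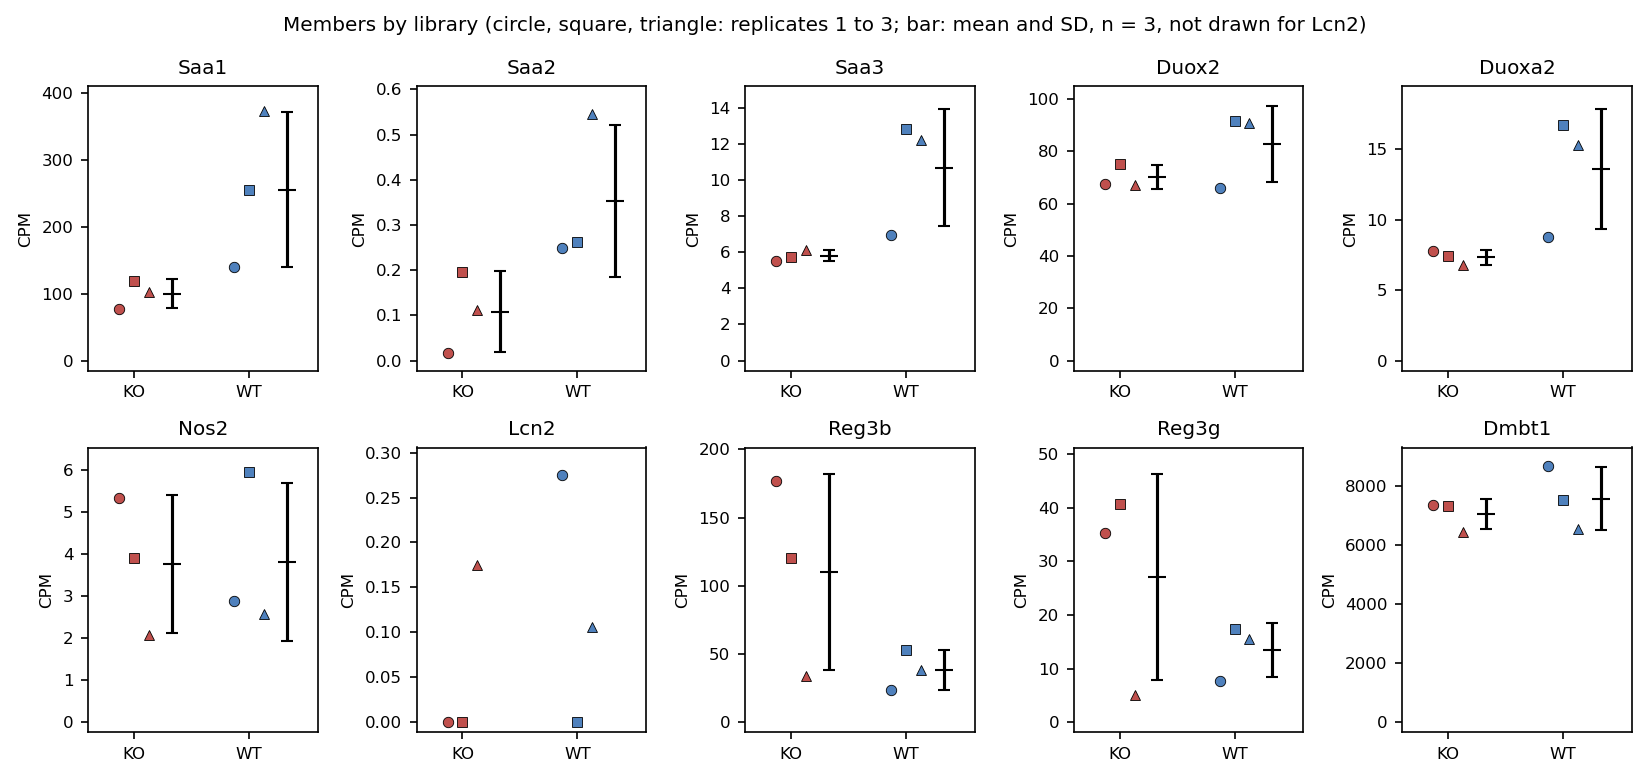
Level of each of the 10 genes in CPM (vertical axes, linear) in 3 KO libraries (left, red) and 3 WT libraries (right, blue), with the mean and SD beside each group except for Lcn2. Saa1, Saa2, Saa3 and Duoxa2 have all KO points below all WT points, with WT replicate 1 the WT library nearest to KO. Reg3b and Reg3g are high in KO replicates 1 and 2 but not in KO replicate 3.

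Between the genotypes, 4 of the 10 genes (Saa1, Saa2, Saa3 and Duoxa2) had every KO library below every WT library, 0 had every KO library above, and the other 6 overlapped. Among all 17900 genes tested, KO lay wholly below WT in 6.90%, wholly above it in 7.26% and the groups failed to overlap in either direction in 14.2%. The edgeR quasi-likelihood test over all genes called 0 of the 9 members it could test, against 8 genes of all those tested (0.0447%). At an unadjusted p under 0.05 there were 4 members (Saa1, Saa3, Duoxa2 and Reg3b), where 8.18% of all genes passed that mark, and 3 of these 4 were lower in KO, where 4.03% of all genes were. DESeq2 called Saa3 and Duoxa2, both lower in KO, where it called 1.65% of the genes to which it gave an adjusted p and 0.880% as lower in KO. Both of these DESeq2 calls were lost when any 1 library other than WT replicate 1 was left out, with adjusted p = 0.215 for Saa3 and adjusted p = 0.113 for Duoxa2 without KO replicate 1. The median log2 fold change of the 9 members was -0.24, with 2 positive and 7 negative values, beside a median of -0.000183 over all genes. Lcn2 was left out of the test for its low counts, and without that filter its log2 fold change was -1.07 with an SE of 1.84.

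Saa1, an acute-phase protein that the colon epithelium also makes, had the smallest p of the members. It had 77.0, 119.9 and 103 CPM in KO replicates 1 to 3, and 140 CPM, 255 CPM and 373 CPM in WT replicates 1 to 3. Every KO library lay below every WT library, and WT replicate 1 lay closer to the highest KO library than to the next WT library. The log2 fold change was -1.36 (SE 0.32; adjusted p = 0.311 in the edgeR fit), the 164th smallest p of the genes tested. DESeq2 gave -1.36 (SE 0.42; adjusted p = 0.0693). Without WT replicate 1 the edgeR value was -1.65 (SE 0.21; adjusted p = 0.0371), and without KO replicate 1 it was -1.20 (SE 0.36; adjusted p = 0.663). Without WT replicate 3, the highest library, edgeR gave -0.98 (SE 0.27; adjusted p = 0.652).

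Saa3, a serum amyloid made outside the liver, showed the same order of groups at a lower level. Its values were 5.53, 5.75 and 6.12 CPM in KO and 6.95, 12.8 and 12.2 CPM in WT. The KO libraries lay within a narrow band, while WT replicates 2 and 3 stood well above WT replicate 1, which was just above the KO band. In log2 terms KO over WT was -0.88 (SE 0.23; edgeR adjusted p = 0.361 and DESeq2 adjusted p = 0.0255, both Benjamini-Hochberg). By edgeR it was -1.12 (SE 0.13; adjusted p = 0.0264) without WT replicate 1 and -0.85 (SE 0.28; adjusted p = 0.698) without KO replicate 1. Without WT replicate 2 it was -0.72 (SE 0.25; edgeR adjusted p = 0.671).

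Saa2, whose protein is close to that of Saa1, was near the floor of detection. It had 1, 15 and 9 counts in KO and 19, 18 and 31 counts in WT, or 0.0168 to 0.196 CPM in KO and 0.249 to 0.546 CPM in WT. The groups did not overlap, yet a single count in KO replicate 1 is below the 3 counts taken as the floor. Its log2 fold change was -1.65 (SE 0.82; edgeR adjusted p = 0.654), and DESeq2 gave no adjusted p. By edgeR it was -1.18 (SE 0.74) without KO replicate 1, -2.36 (SE 1.01) without KO replicate 2, -1.86 (SE 0.95) without WT replicate 1 and -1.20 (SE 0.99) without WT replicate 3. Within each library Saa2 was at 0.000218 to 0.00163 of the Saa1 count in KO and at 0.00103 to 0.00177 in WT. The ratio did not separate the genotypes (log2 difference -0.93, exact permutation p = 0.5, 2-sided, 0.5 after adjustment over 3 ratios), and without KO replicate 1 the difference was -0.06. In the longest protein-coding transcripts of GENCODE M21, 0 of 460 windows of 150 bases in Saa1 and 0 of 503 in Saa2 occur in a transcript of another gene, although the 2 transcripts were identical in 87.3% of aligned columns. How the authors split reads between such near copies is unknown, so the Saa2 value is uncertain. Adding Saa2 to Saa1 before the test left the log2 fold change at -1.36.

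Duoxa2 and Duox2 encode both parts of the hydrogen peroxide source, the maturation factor that carries the enzyme to the cell surface and the oxidase itself. Duoxa2 had 7.76, 7.43 and 6.75 CPM in KO and 8.75, 16.7 and 15.3 CPM in WT. The groups did not overlap, and WT replicate 1 was again the WT library nearest to KO. For KO over WT the log2 value was -0.89 (SE 0.23; edgeR adjusted p = 0.361 and DESeq2 adjusted p = 0.0175, both Benjamini-Hochberg). Without WT replicate 1 edgeR gave -1.13 (SE 0.12; adjusted p = 0.0264), and without KO replicate 1 it gave -0.94 (SE 0.28; adjusted p = 0.663). Without WT replicate 2 it gave -0.71 (SE 0.24; adjusted p = 0.667).

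Duox2 had 67.4, 75.3 and 67.3 CPM in KO and 65.9, 91.5 and 90.9 CPM in WT, so WT replicate 1 lay below all KO libraries and the groups overlapped. A log2 fold change of -0.24 was fitted (SE 0.13; edgeR adjusted p = 0.679), and -0.22 (SE 0.15) without KO replicate 1. Without WT replicate 1 it was -0.39 (SE 0.08; edgeR adjusted p = 0.0817), and DESeq2 called it in that setting (adjusted p = 0.00073). Of the longest Duox2 transcript, 31 of 5963 windows of 150 bases (0.520%) also occur in Duox1.

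Duoxa2 counts per Duox2 count were 0.115, 0.0987 and 0.10 in KO and 0.133, 0.183 and 0.168 in WT. All KO libraries lay below all WT libraries (mean 0.105 ± 0.00906 in KO and 0.161 ± 0.0256 in WT, SD, n = 3 each). The log2 difference was -0.61 with an exact permutation p = 0.1, 2-sided, the smallest that 3 against 3 can give, and 0.3 after adjustment over 3 ratios. With 1 library left out the log2 difference ran from -0.74 (without WT replicate 1) to -0.51 (without WT replicate 2). Its sign could not turn in these settings, since the groups did not overlap.

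**Figure D2:**
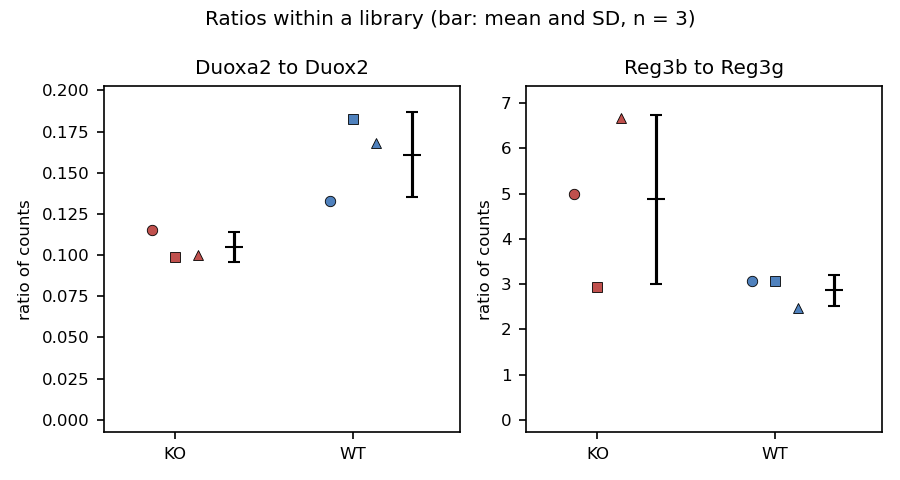
Counts of Duoxa2 per count of Duox2 (left panel) and of Reg3b per count of Reg3g (right panel) in each library, KO left in red and WT right in blue, with mean and SD. The oxidase ratio is 0.0987 to 0.115 in KO and 0.133 to 0.183 in WT, without overlap, while the lectin ratio overlaps.

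Nos2 (chr11:78920787-78960254), the inducible nitric oxide synthase, varied within each genotype. It had 5.33, 3.91 and 2.07 CPM in KO and 2.89, 5.97 and 2.57 CPM in WT. The highest and the lowest library were WT replicate 2 and KO replicate 3. The log2 fold change was -0.02 (SE 0.42; edgeR adjusted p = 0.995), and its sign turned with library totals (0.13), without KO replicate 3 (0.28) and without WT replicate 2 (0.46). It was -0.35 without KO replicate 1 and -0.19 without WT replicate 1.

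Reg3b and Reg3g, bactericidal lectins, had the widest spread of the members above 1 CPM, and it was wider inside KO than inside WT. The highest KO library was at 5.21 times the lowest for Reg3b and 8.04 times for Reg3g, against 2.24 times in WT for each. Reg3b had 177, 120.1 and 33.9 CPM in KO and 23.6, 53.0 and 38.2 CPM in WT. KO replicates 1 and 2 stood above all WT libraries, while KO replicate 3 lay among them. The log2 fold change was 1.52 (SE 0.53; edgeR adjusted p = 0.511), 1.01 (SE 0.51; adjusted p = 0.863) without KO replicate 1 and 1.27 (SE 0.59; adjusted p = 0.341) without WT replicate 1. Without KO replicate 3 it was 1.95 (SE 0.32; edgeR adjusted p = 0.307), and DESeq2 called it in that setting (adjusted p = 2.32e-07).

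Reg3g had 35.3, 40.8 and 5.08 CPM in KO and 7.73, 17.3 and 15.5 CPM in WT. KO replicates 1 and 2 were the highest of the 6 libraries and KO replicate 3 the lowest. Its log2 fold change was 1.0 (SE 0.64; edgeR adjusted p = 0.737), 0.77 (SE 0.74) without KO replicate 1 and 0.72 (SE 0.71) without WT replicate 1. Without KO replicate 3 it was 1.5 (SE 0.31; edgeR adjusted p = 0.497), and DESeq2 called it there too (adjusted p = 0.00109). The count of Reg3b per count of Reg3g was 5.00, 2.94 and 6.68 in KO and 3.06, 3.06 and 2.47 in WT, overlapping between the genotypes (log2 difference 0.70, exact permutation p = 0.3, 2-sided, 0.45 after adjustment over 3 ratios).

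Markers of Paneth cells, cells of the small intestine that the healthy mouse colon lacks, were measured in the same libraries. Their 6 genes summed to 2.48, 13.7 and 0.714 CPM in KO and 0.602, 0.687 and 0.546 CPM in WT. All 5 defensin genes of the list had counts in KO replicate 2 alone and were at 0 in the other 5 libraries. Mmp7, the protease that processes these defensins in the mouse, had 2.48, 3.06 and 0.714 CPM in KO, and its WT libraries had 0.546 to 0.687 CPM. The part of these cells in the Reg3b and Reg3g values was not tested.

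Dmbt1 (chr7:131032053-131121630), by far the most abundant member, had 7380, 7328 and 6458 CPM in KO and 8677, 7517 and 6544 CPM in WT, with overlapping groups and a log2 fold change of -0.10 (SE 0.13; edgeR adjusted p = 0.870). With library totals in place of TMM scaling the sign turned (0.046, SE 0.15), a scaling that moved the median of all genes to 0.15, and the value was 0.0014 without WT replicate 1 and -0.14 without KO replicate 1.

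Lcn2 (chr2:32384633-32388252), the siderophore-binding lipocalin, was at or near 0 in each library. It had 0, 0 and 14 counts in KO and 21, 0 and 6 counts in WT. A count of 0 allows up to 3 counts, or 0.0503 CPM and 0.0392 CPM in KO replicates 1 and 2 and 0.0439 CPM in WT replicate 2. Neutrophils also make this protein. The 8 neutrophil markers each had counts in at least 1 library, with sums of 9.42 to 14.4 CPM in KO and 11.4 to 22.1 CPM in WT that were nearly all Ly6g, while the defining genes S100a8, S100a9, Mpo and Elane were each at 0 to 0.209 CPM.

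**Figure D3:**
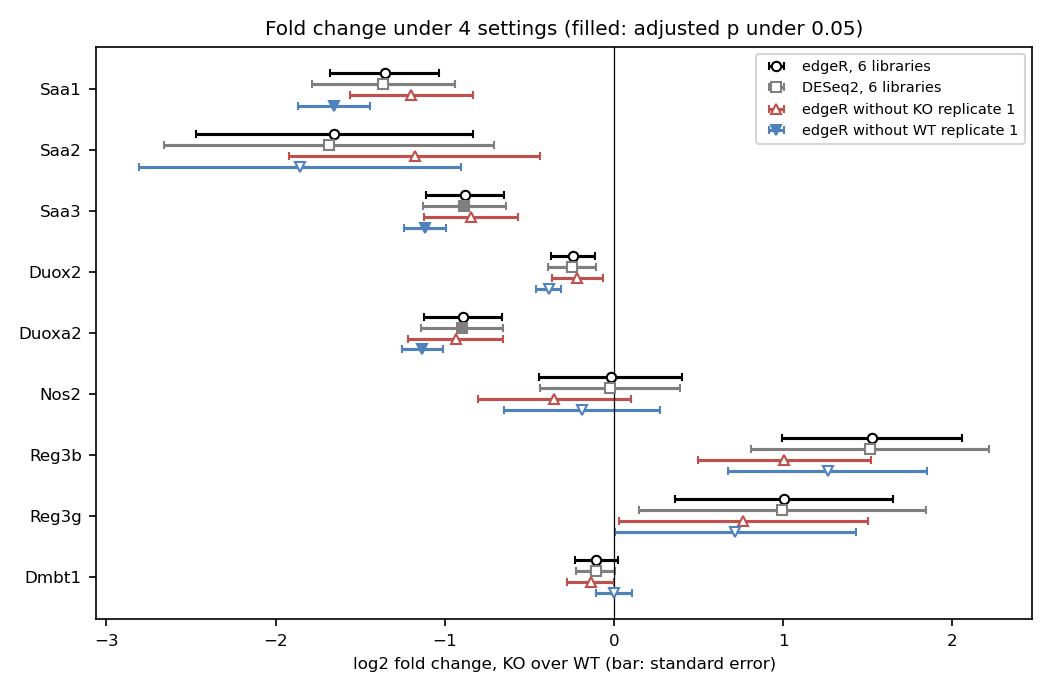
Log2 fold change of KO over WT with its standard error for the 9 genes in the fit, under edgeR and DESeq2 with 6 libraries and under edgeR without KO replicate 1 or without WT replicate 1. Filled symbols passed an adjusted p of 0.05. Saa1, Saa3 and Duoxa2 lie between -0.85 and -1.65 under these settings, and Reg3b and Reg3g are positive with wide errors.

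Across the 6 libraries likeness between members was measured as the mean absolute difference between log2 CPM profiles centred on their means. Saa3 and Duoxa2 were closest of the 28 pairs among 8 members of at least 1 CPM, 0.07 apart, followed by Duox2 with Dmbt1 at 0.22, Saa1 with Duoxa2 at 0.24 and Saa1 with Saa3 at 0.25. Duoxa2 lay 0.30 from its neighbour Duox2, and Reg3b lay 0.45 from Reg3g. The pair farthest apart was Saa1 with Reg3b at 1.35. Profiles were not scaled for their spread, so genes that vary little come out close whatever their order of libraries. WT replicate 1 was the lowest library for Duox2 (-0.20 from its mean) and the highest for Dmbt1 (0.25). These distances describe 6 libraries and carry no test.

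**Figure D4:**
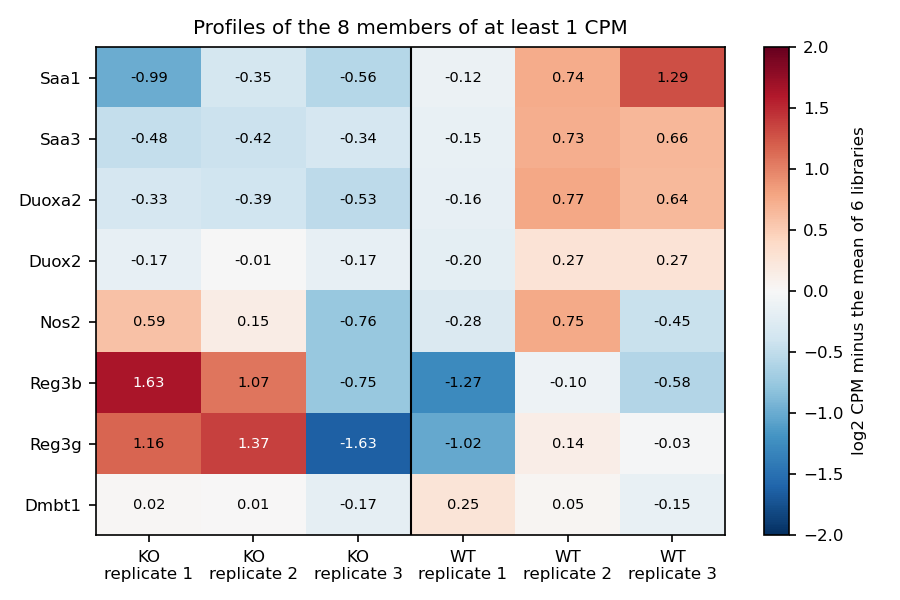
Log2 CPM of 8 members minus the mean of 6 libraries (colour scale and printed values), with KO libraries left of the line and WT libraries right of it. Saa1, Saa3 and Duoxa2 are positive in WT replicates 2 and 3 alone, and Reg3b and Reg3g are highest in KO replicates 1 and 2.

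Among 12043 other named genes of at least 1 CPM, those nearest to Saa1 by the same measure were Selenop (0.15), which encodes a selenium carrier, Plekho2 (0.16) and the hormone gene Gcg (0.17). Nearest to Saa3 were Sytl3 (0.06), Brsk1 (0.08) and Apol7b (0.11). Nearest to Duoxa2 were the class I-like gene H2-K2 (0.10), Sytl3 (0.12) and the interferon-induced Oas3 (0.13). For Duox2 they were Erbb3 (0.03), Rgs17 (0.04) and Pink1 (0.04), and for Dmbt1 Cox6b1, Kremen1 and Capn10 (0.03 each). Reg3b had Pla2g4b at 0.37, Mmp7 at 0.40 and the small-intestinal sucrase gene Sis at 0.44. Reg3g had Fam216a and Pdgfb at 0.52 and 0.53 and Mmp7 at 0.53, and Nos2 had Zbtb11os1 at 0.19, Grin3a at 0.20 and Esr1 at 0.20.

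Of 19 relatives of the members that were listed, 16 were found, 11 were tested and 0 passed in either direction by edgeR. Their log2 fold changes were positive in 5 and negative in 6, with a median of -0.0022, and DESeq2 called Reg4 alone. Reg4, a lectin of the same family that deep crypt secretory cells make, had 666 CPM, 714 CPM and 713 CPM in KO and 524 CPM, 453 CPM and 463 CPM in WT (log2 fold change 0.54, SE 0.09; edgeR adjusted p = 0.108), so that all KO libraries lay above all WT libraries. The 6 goblet cell markers, all detected, summed to 15646 to 16046 CPM in KO and 8910 to 10631 CPM in WT. Their log2 fold changes were positive in 4 and negative in 2 (median 0.38), and 0 passed by edgeR. DESeq2 called 2 of the 6 as higher in KO and 0 as lower, beside 119 of 15458 genes as higher. The part of goblet cells in the Reg4 value was not tested. Nox1, the other main oxidase of the colon epithelium, had 28.0, 20.2 and 15.3 CPM in KO and 25.5, 11.1 and 12.9 CPM in WT (0.36, SE 0.33). Its partners Noxo1 (-0.0022, SE 0.08), Noxa1 (-0.23, SE 0.11) and Cyba (-0.06, SE 0.08) did not pass either. The remaining 11 relatives averaged under 1 CPM over the 6 libraries, among them Duox1, the other dual oxidase, at 0.414 to 0.620 CPM in KO and 0.170 to 0.673 CPM in WT.

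Genes that act before the members in the pathway were next. Of 20 receptor, STAT3 and co-activator genes 0 passed by edgeR, 6 were positive and 14 negative (median -0.08). Il10rb, a chain of the IL-22 receptor, had 53.4 ± 3.17 CPM in KO and 62.9 ± 1.92 CPM in WT (-0.24, SE 0.07; SD, n = 3 each), without overlap. Stat3 (-0.16, SE 0.12), Jak2 (-0.18, SE 0.09), Il17rc (-0.07, SE 0.08) and Il18r1 (-1.11, SE 0.47) overlapped. Of 23 sensing genes tested 0 passed (11 positive, 12 negative, median -0.01), with the adaptor Ticam1 at 44.3 ± 3.87 CPM in KO and 55.1 ± 3.02 CPM in WT (-0.32, SE 0.09) and Tlr1 at 0.17 (SE 0.07), neither overlapping between the genotypes. The inflammasome genes Nlrp6 (-0.16, SE 0.09) and Nlrc4 (-0.01, SE 0.12) and the inhibitory receptor Sigirr (-0.20, SE 0.11) overlapped. Of 14 NF-kB genes 0 passed (6 positive, 8 negative, median -0.03), with Nfkbie, an inhibitor that NF-kB induces, at 3.39, 3.89 and 3.21 CPM in KO and 4.02, 6.23 and 9.52 CPM in WT (-0.91, SE 0.30). Tnfaip3 (-0.09, SE 0.14), Nfkbia (-0.05, SE 0.10), Tnip1 (-0.16, SE 0.09) and Bcl3 (-0.16, SE 0.10) overlapped.

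Of 15 inducing cytokines that were listed, 14 were found, 9 were tested and 0 passed (4 positive, 5 negative, median -0.02), and Il22, Il17a and Il17f were each at 0 to 0.150 CPM. Il1b, the cytokine of activated myeloid cells, had 1.32, 3.2 and 2.06 CPM in KO and 1.28, 5.78 and 10.8 CPM in WT. Its groups overlapped (-1.43, SE 0.66, edgeR adjusted p = 0.634). It was high in WT replicates 2 and 3, in which Saa1, Saa3 and Duoxa2 were high, and its part in their values was not tested. Tnf (0.07, SE 0.17) and Il18 (0.10, SE 0.14) overlapped, and Ifng and Osm averaged under 1 CPM.

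Markers of other cells were also compared, and the genes named here were chosen after their values were seen. Cd3e, a chain of the T cell receptor complex, had 3.2, 2.85 and 3.4 CPM in KO and 2.54, 4.5 and 8.02 CPM in WT, with overlapping groups. The 12 T cell and innate lymphoid markers, all detected, summed to 37.6 to 78.7 CPM in KO and 49.7 to 123 CPM in WT, which overlap. Of the 11 of these that were tested, 1 had a positive and 10 negative log2 fold changes, and 0 passed. The 10 macrophage and dendritic cell markers, all detected, summed to 15.3 to 16.6 CPM in KO and 17.3 to 27.9 CPM in WT, without overlap. Of the 8 that were tested, 3 had positive and 5 negative log2 fold changes and 0 passed. Cd68 (0.36, SE 0.54), Mrc1 (0.32, SE 0.40) and C1qa (0.0049, SE 0.17) were the positive ones. Csf1r, the receptor that sustains macrophages, had 0.654, 1.62 and 0.689 CPM in KO and 1.5, 2.62 and 4.32 CPM in WT (-1.50, SE 0.49), with overlapping groups. The 6 markers of absorptive colonocytes, all detected, had 0 positive and 6 negative log2 fold changes (median -0.30), and 0 passed by edgeR and 2 by DESeq2. They summed to 8030 to 10731 CPM in KO and 9037 to 12487 CPM in WT. Car4, a carbonic anhydrase of these cells, had 238 ± 19.9 CPM in KO and 356 ± 74.8 CPM in WT (SD, n = 3 each), and the water channel gene Aqp8 had 275 ± 68.7 CPM in KO and 461 ± 130 CPM in WT, both without overlap. The part of any of these cells in the Saa1, Saa3 and Duoxa2 values was not tested. Saa1 and Saa2 are also liver products. The 3 hepatocyte markers measured, all detected, summed to 6.74 to 10.4 CPM in KO and 10.3 to 22.4 CPM in WT, most of it Ttr, with the defining Alb at 0.184 to 0.388 CPM in KO and 0.117 to 0.635 CPM in WT. The 3 hepatocyte markers had 0 positive and 3 negative log2 fold changes (median -0.92). By edgeR 0 of them passed, and DESeq2 called 1 as lower in KO. The part of such cells in the Saa1 value was not tested.

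**Figure D5:**
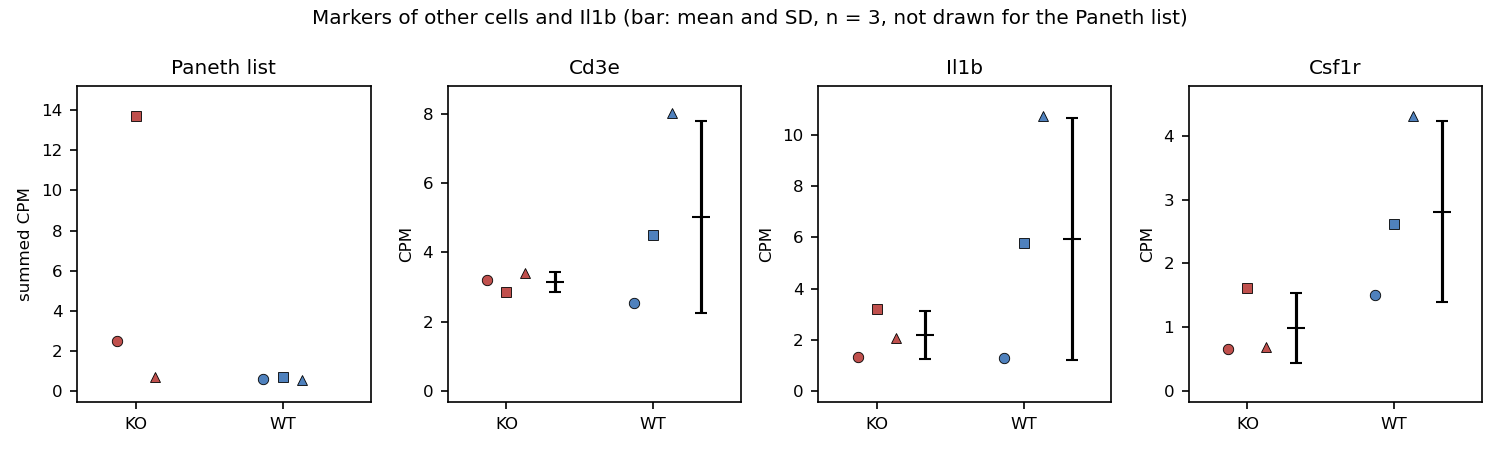
Summed CPM of the 6 Paneth cell markers and CPM of the T cell gene Cd3e, the cytokine Il1b and the macrophage gene Csf1r in each library, KO left in red and WT right in blue, with mean and SD where drawn. The Paneth sum reaches 13.7 CPM in KO replicate 2, and the other 3 panels are highest in WT replicate 3.

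Of 15 antimicrobial genes tested 0 passed by edgeR, 7 were positive and 8 negative (median -0.06). DESeq2 called 4 of them as higher in KO and 0 as lower. Of the 15458 genes to which it gave an adjusted p, it called 119 as higher in KO. Mptx1, a pentraxin, had 2406, 1313 and 1832 CPM in KO and 348 CPM, 581 CPM and 118 CPM in WT (2.41, SE 0.51; edgeR adjusted p = 0.249). Retnlb, a resistin-like protein that kills bacteria, had 305 ± 58.2 CPM in KO and 97.8 ± 35.1 CPM in WT (1.64, SE 0.25), and the lectin Itln1 had 13.5 ± 1.83 CPM in KO and 2.78 ± 1.59 CPM in WT (2.28, SE 0.40; SD, n = 3 each). All 3 had every KO library above every WT library, alongside the goblet marker sums given above, whose part was not tested. Lypd8, which keeps flagellated bacteria from the epithelium, had 4138 ± 327 CPM in KO and 5257 ± 623 CPM in WT (-0.35, SE 0.12), without overlap. Of 20 further genes that microbes or inflammation raise, 0 passed and 8 were positive against 12 negative (median -0.08). Pigr (-0.05, SE 0.19), the carrier of IgA into the lumen, and Fut2 (-0.05, SE 0.10), which fucosylates the epithelial surface, overlapped. Ccl28 (-0.43, SE 0.16), Tgm2 (-0.30, SE 0.11) and Pla2g5 (0.79, SE 0.27) had the lowest p of that list and did not pass.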

How the data were processed

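The members and the gene lists were chosen with earlier results of these data known. Raw counts per gene and FPKM values (scaled by gene length and library size) were deposited by the authors in 1 table, per the file headers. Per the submitters' processing notes, mm10 was the build named, StringTie 2.1.6, HISAT2 2.2.1 and cutadapt 1.9 were run, and edgeR and DESeq2 are named too. The way counts were assigned, and whether by strand, was not stated in the labels or headers.

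All 28500 genes of 6 libraries were read, with 0 further columns of samples. Genes kept by edgeR's filterByExpr (17900) were scaled by TMM and tested with edgeR 4.0.16's quasi-likelihood test (R 4.3.3), 2-sided, with Benjamini-Hochberg adjustment over all genes and a threshold of 0.05. The model held genotype and no block. DESeq2 1.42.0 and limma-voom (limma 3.58.1) were alternatives, each also tested on simulated data. CPM values carry the TMM factors, and SE is the log2 fold change over the root of F. Named genes beyond the members follow a rule: Ube2f, relatives of at least 1 CPM, then the 3 of lowest p and the 2 most abundant per list, and the 3 nearest profiles per member. Those few named outside it (Duox1, Il22, Il17a, Il17f and the marker genes) were chosen after their values were seen. Likeness was measured on log2 CPM with a prior count of 2.

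The labels give separate mice per replicate number but no litter or day. Replicate pairs differed beyond counting error, with chi-square over its degrees of freedom at 25.3 to 177. Totals of 55971362 to 77524693 counts make the floor of 3 counts 0.0376 to 0.0529 CPM. Of 26774 gene IDs found in GENCODE M21 (GRCm38), 517 had the table's coordinates, so no position of the table is printed. Counts lack molecular identifiers, so floors cover counting error only. Promoters are RefSeq's on GRCm38.p6. Protein sequences were not used here. Sums of the other marker lists are not reported here.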

Additional observations from a re-analysis of the deposited data

How the results depend on the processing

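The count of members called was 0 by edgeR under RLE size factors, library totals, no filter and the replicate block, and with Saa1 and Saa2 summed, and 0 by limma-voom, where 3 members had an unadjusted p under 0.05. It was 2 by DESeq2 (Saa3 and Duoxa2) and ran from 0 to 3 by edgeR with 1 library left out, the 3 (Saa1, Saa3 and Duoxa2) being without WT replicate 1. DESeq2 with 1 library left out, a setting added after the data were seen, gave 0 to 4 (2, Reg3b and Reg3g, without KO replicate 3, 4 without WT replicate 1 and 1, Saa1, without WT replicate 3). Over all genes 8 were called, with 18 by library totals, 255 by DESeq2, 5 by limma-voom and 10 with the replicate block, and from 0 to 90 with 1 library left out (90 without WT replicate 1, and 0 without KO replicate 1, KO replicate 3 or WT replicate 2, where 1129, 1127 and 1240 genes had an unadjusted p under 0.05). Deviations of same-numbered libraries correlated at 0.08, -0.01 and 0.08, so the numbers were not taken as pairs, and not every KO library correlated best with its own number in WT, so the block is not a pairing by design. Saa1, Saa2, Saa3, Duoxa2 and Duox2 stayed negative and Reg3b and Reg3g positive in every alternative that gave a value. For Saa1, Saa2, Saa3 and Duoxa2 the groups did not overlap, so leaving out 1 library could hardly turn the sign. Nos2 turned positive with library totals (0.13), without KO replicate 3 (0.28 by edgeR and 0.27 by DESeq2) and without WT replicate 2 (0.46 and 0.45), its values with 1 library left out running from -0.35 to 0.46. Dmbt1 turned positive with library totals (0.046) and ran from -0.20 to 0.0014 with 1 library left out (0.0014 without WT replicate 1). The causes were not tested. With the replicate block Saa1 was at -1.27 (adjusted p = 0.108) and the block changed no member's call. The log2 difference of the Duoxa2 to Duox2 ratio could not change sign with 1 library left out, since its groups did not overlap. Saa2 and Lcn2 are limited by depth, at no more than 31 and 21 counts a library.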
